A study of Mus musculus with 9 samples.

Results

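The 3 libraries that carry replicate number 1 were compared with the 6 that carry number 2 or 3, in a set of 9 RNA sequencing libraries of mouse neutrophils grown in hydrogels of 3 stiffnesses. The 3 libraries were chosen by their replicate number in the sample titles, after the expression values themselves had shown that this number separates the libraries more than gel stiffness does. The levels that differ between replicate 1 and the other libraries therefore describe the split, and no test of them is used as support. Tests were kept for the effect of stiffness within replicate 1 set against that within replicates 2 and 3. This contrast did not define the split. Its spread came from replicates 2 and 3, however, which the same expression values had placed together. Its p-values are therefore not independent of the split. Replicate 3 against replicate 2 is given as a description, since the same expression values had placed both on one side.

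All cells were wild-type primary neutrophils from mouse bone marrow, embedded in gelatin methacryloyl (GelMA), a crosslinkable gelatin that forms a soft gel. The gels had an elastic modulus of 1.5 kPa (low stiffness, the control), 2.6 kPa (middle) or 5.7 kPa (high), and each stiffness had 1 library of each replicate number. Culture in the gel lasted 2 days, at 37 °C and 5% CO2, with RPMI 1640 and 10% fetal bovine serum as the medium, and messenger RNA was selected by its poly(A) tail. No group had a freshly isolated or gel-free control here, and the sources used here do not give the purity of the cells, the sex and age of the mice or the dates of culture and sequencing. The labels leave unsaid whether each replicate came from its own animal or its own culture, and what samples with the same number have in common. Every p-value therefore reflects library-to-library spread, part or all of which may be technical.

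A neutrophil fills its granules in a fixed order while it matures in the marrow: azurophil granules in the promyelocyte, secondary granules in the myelocyte and metamyelocyte, and tertiary granules and secretory vesicles last. Mature neutrophils carry the calcium-binding pair S100a8 and S100a9, the chemokine receptor Cxcr2 and the growth factor receptor Csf3r, and they live briefly outside the body. Macrophages, which share the lysozyme gene Lyz2 and many surface proteins with neutrophils, digest engulfed material in lysosomes acidified by a proton pump, store iron in ferritin, and take up lipid through Cd36.

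Total counts were 13172879, 13214759 and 14093074 in the low, middle and high replicate 1 libraries, and 14693998 to 19486546 in the other 6. All 3 replicate 1 libraries were thus less deep than every other library. Along the first principal component, which took up 68.1% of the variance, the fit placed replicate 1 at 53.58 to 72.47 and the others at -39.29 to -23.81, against 13.2% for the second component. Of the 12094 genes tested, 2278 (18.8%) were set apart, meaning that all 3 replicate 1 libraries lay above, or all below, the 6 others in CPM (counts relative to the library total, scaled by the TMM method) with a fitted difference of at least 2-fold. Of these, 778 (6.43%) were higher and 1500 (12.4%) lower in replicate 1. Without the 2-fold minimum, 54.2% of the genes had no overlap, and edgeR at an adjusted p under 0.05 took in 67.2%. Because these values defined the split, the counts are read only as the background for the gene lists. The median absolute log2 difference was 0.504 between replicate 1 and the others and 0.077 between replicates 3 and 2, where edgeR called 0 genes (150 at an unadjusted p under 0.05, or 1.24%, and 0 by DESeq2). The same values had put replicates 2 and 3 together, so their closeness is not independent support that they are alike. When every library was thinned to the smallest total, 751 genes were set apart higher and 1468 lower.

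The split also followed gene length. Tested genes were divided by exonic length into 5 bins of like size. From the bin of the shortest to that of the longest genes, the median log2 fold change of replicate 1 against the others went from 0.35 through 0.15, 0.03 and -0.13 to -0.32. The share set apart higher went from 13.1% to 2.40% and the share set apart lower from 7.48% to 18.9%. The part of gene length, and of whatever moves with it, in the differences of single genes was not tested. Where it matters, the median of a list is also given after centring each gene on genes of like length, which left 629 genes set apart higher and 1410 lower. In what follows, a fold change is the fitted log2 difference of replicate 1 minus replicates 2 and 3 with its standard error. The fit held 3 against 6 libraries, with gel stiffness as a term. Counts of list members set apart are to be read beside the shares over all tested genes, 6.43% higher and 12.4% lower. Some genes, among them Cd177, Cybb and Cd63, stand in several lists, so the list counts are not independent.

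**Figure D1:**
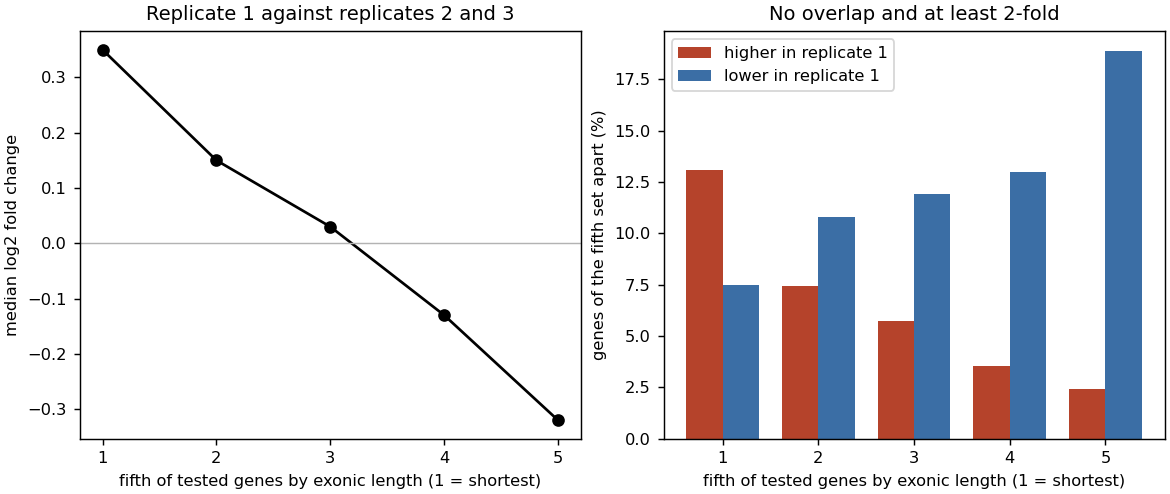
Replicate 1 against replicates 2 and 3 by exonic gene length. The left plot gives the median log2 fold change in 5 bins of the 12094 tested genes and the right plot the percentage of its genes that were set apart in each direction; the median passes from 0.35 for the shortest genes to -0.32 in the longest.

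The 4 marker genes divided by replicate number without overlap, as did 54.2% of all tested genes. S100a8, an abundant calcium-binding protein of neutrophils, stood at 977 CPM in the low gel, 1335 in the middle and 1382 in the high for replicate 1, and at 3502 to 5699 CPM (median 4131) in the other 6 libraries. All 3 replicate 1 libraries were lower than every other library, with a log2 fold change of -1.82 ± 0.19. Its partner S100a9 followed (995, 1118 and 1065 CPM against 3316 to 5379.5 CPM, median 3958). Lyz2, the lysozyme of neutrophils and macrophages, was at 5518 CPM in the low gel, 8379 in the middle and 9389 in the high in replicate 1 and 10767 to 12655 CPM (median 11578) in the others. The ranges did not overlap, but the difference was under 2-fold at -0.60 ± 0.12. Gpnmb, a glycoprotein of lysosome-rich macrophages, was at 5709 CPM in the low gel, 4562 in the middle and 4609 in the high in replicate 1 and 1165 to 3419.8 CPM (median 1939) elsewhere, higher in every replicate 1 library (1.30 ± 0.17). Fth1, the ferritin heavy chain, was at 23131 CPM in the low gel, 27185 in the middle and 31116 in the high against 14116 to 19181 CPM (median 16672), without overlap and under 2-fold (0.67 ± 0.085). After centring on genes of like length the Fth1 difference was 0.22 and that of Lyz2 was -1.0.

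On a per-length scale (RPKM), S100a8 remained above Gpnmb in every library, replicate 1 included. The ratio of Gpnmb to S100a8 per length was 0.599, 0.350 and 0.342 in the low, middle and high replicate 1 libraries, and 0.0341 to 0.0887 in the others. The ratio of Fth1 to Lyz2 per length was 4.70, 3.64 and 3.72 in replicate 1 and 1.47 to 1.9 in the others. In both ratios the replicate 1 libraries and the others did not overlap. Since 54.2% of single tested genes had no overlap either, this only describes the split. In these bulk libraries fewer cells of a type and less RNA per cell cannot be told apart.

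**Figure D2:**
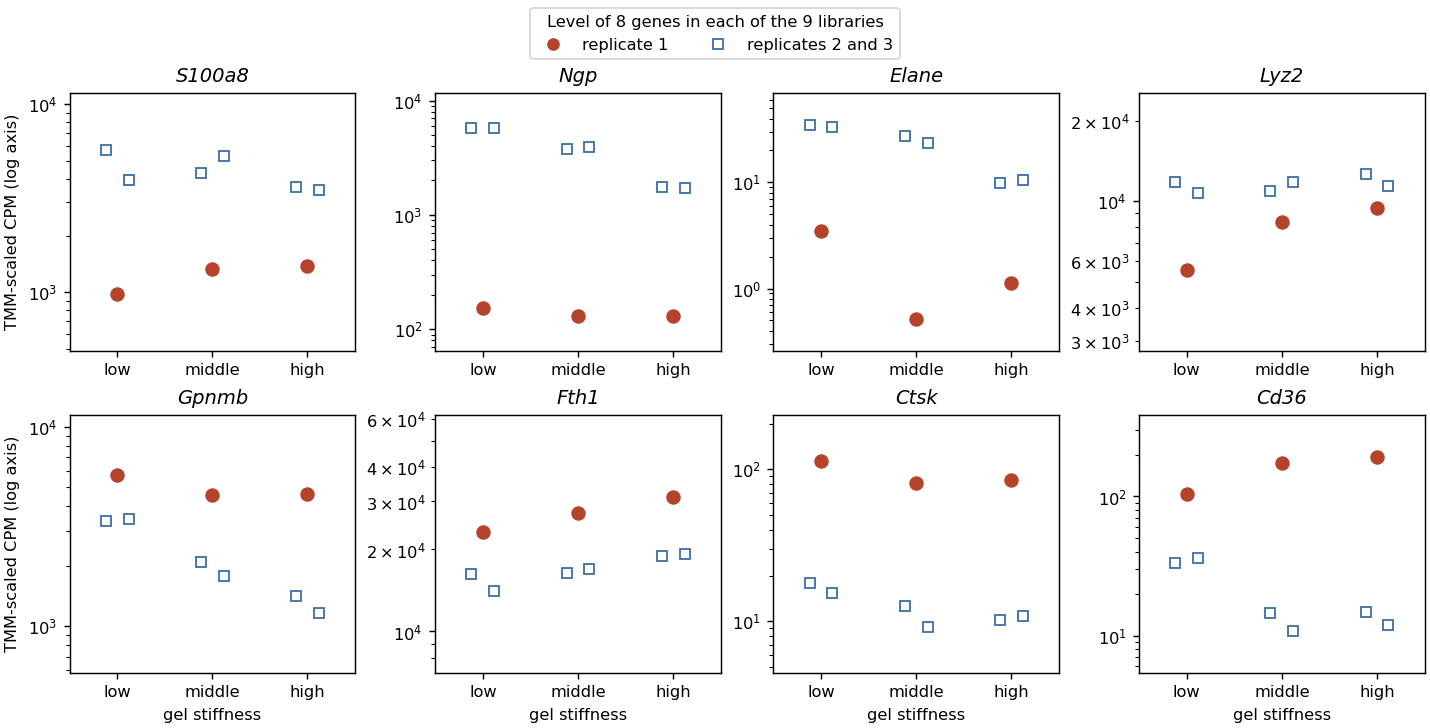
Level of 8 genes in each library (TMM-scaled CPM, log axis) by gel stiffness. Filled circles are replicate 1 and open squares replicates 2 and 3; S100a8, Ngp, Elane and Lyz2 are lower and Gpnmb, Fth1, Ctsk and Cd36 higher in all 3 replicate 1 libraries than in the other 6.

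Mature neutrophil markers were lower in replicate 1. Of 34 tested members, 24 were set apart lower and 0 higher, with a median log2 fold change of -1.8 against 0.00 over all tested genes. Cd177, a surface protein of granule-bearing neutrophils, was at 24.7, 22.3 and 23.7 CPM in replicate 1 against 149 to 294 CPM (median 248, log2 fold change -3.22 ± 0.16). Retnlg, a resistin-like secreted protein, was at 44.7, 31.8 and 31.3 CPM against 123 to 459 CPM (median 261, log2 fold change -2.77 ± 0.27). Every replicate 1 library held less of both than any other library. The receptors Cxcr2 (-2.53 ± 0.15), Csf3r (-2.26 ± 0.12) and Trem1 (-2.54 ± 0.35) lay on the same side, as did the interferon-inducible membrane genes Ifitm1 (-2.98) and Ifitm6 (-2.98), close paralogs among which reads may be shared. The list was not uniform. Clec4d, a lectin receptor also made by macrophages, was at 1918, 2388 and 2723 CPM in replicate 1 and 1087 to 1479 CPM (median 1261) elsewhere (0.84 ± 0.077), and Slpi, a protease inhibitor, and Il1rn, the interleukin-1 receptor antagonist, had values of 0.66 and 0.55. The summed level of the list was 11060 to 13670 CPM in replicate 1 and 20450 to 24700 in the other 6.

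Ly6g, the surface antigen used to sort mouse neutrophils, depended on the gel as well. It was at 5.05 CPM in the low gel, 7.25 in the middle and 9.81 in the high in replicate 1, and in the others at 51.2 and 43.8 CPM in the low gel, 19.8 and 24.1 in the middle and 11.1 and 10.1 in the high. The libraries of the 2 sides were therefore far apart in the low gel and nearly met in the high gel.

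The azurophil granule genes, made earliest, were all lower in replicate 1: 8 of 8 tested members were set apart, with a median of -2.74. Elane, neutrophil elastase, was at 3.47, 0.518 and 1.14 CPM in replicate 1 against 9.78 to 34.6 CPM (median 25.3, log2 fold change -3.77 ± 0.29). Prtn3, proteinase 3, was at 2.86, 0.666 and 1.07 CPM against 12.2 to 31.1 CPM (median 24.1, log2 fold change -3.84 ± 0.29), and Mpo, myeloperoxidase, at 12.2, 2.07 and 3.27 CPM against 21.8 to 89.2 CPM (median 74.7, log2 fold change -3.44 ± 0.42). No replicate 1 library reached the lowest of the other 6 for any of these. Ctsg, cathepsin G, had a fold change of -2.56 ± 0.30. Ctsc, the protease that activates these serine proteases and that is more widely made, differed less at -1.49 ± 0.15.

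Among the secondary granule genes 13 of 14 were set apart lower, with a median of -1.88. Ngp, neutrophilic granule protein, showed the largest decrease among granule genes: 152, 131 and 129.8 CPM in replicate 1 against 1714 to 5794 CPM (median 3869, log2 fold change -4.58 ± 0.32). Ltf, the iron-binding lactoferrin, was at 75.5, 66.1 and 62.4 CPM against 427 to 1622 CPM (median 950.5, log2 fold change -3.71 ± 0.29), and Fcnb, a lectin of granules, at 0.905, 0.74 and 0.355 CPM against 6.62 to 22.1 CPM (median 14.6, log2 fold change -4.34 ± 0.19). Itgb2l, an integrin-like neutrophil gene, was at 8.67, 7.25 and 6.61 CPM against 44 to 116 CPM (median 81.9, log2 fold change -3.37 ± 0.14). These 4 were lower in each replicate 1 library than in any other. Smaller differences were seen for Lcn2, which binds bacterial siderophores (-1.41 ± 0.14), the collagenase Mmp8 (-1.69 ± 0.11), the haptoglobin gene Hp (-1.48 ± 0.12) and Camp, the cathelicidin (-1.87 ± 0.44). Cyba, a subunit of the oxidase membrane core that other cells also make, was the member not set apart (0.58).

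C/EBP transcription factors drive granule genes, so promoter windows of the granule genes were searched for the letters TTGCNCAA (8 bases, both strands) in RefSeq sequence of build GRCm38.p6, from 250 bases before to 50 after each start. The letters occurred in 5 of 13 secondary granule genes with a window (38.5%), in 0 of 7 azurophil granule genes, in 3.09% of the 9737 tested genes with a window, and in 3.37% of the 27025 genes of the table. The stretches of the 3 secondary granule genes with the largest decreases are shown because they carry these letters, in capitals, in the orientation of the gene. They lie at chr9:110419644-110419703, plus strand (Ngp), chr2:28084968-28085027, minus strand (Fcnb) and chr9:111019191-111019250, plus strand (Ltf), all of GRCm38.p6, and the match begins 138, 123 and 75 bases upstream of the start. Ngp has another match, 11 bases upstream and outside the stretch shown. Lcn2 (-1.405) and Mmp8 (-1.69) carried the letters as well, with smaller decreases. Itgb2l (-3.365) and Cd177 (-3.22), with larger decreases than Lcn2 and Mmp8, were not among the carriers. Where the capitals read TTGGGCAA or TTGTGCAA the match is on the opposite strand. A match is a description of letters and not a measured binding site. Since C/EBP factors drive granule genes, the higher share can follow from the choice of list and is no result of the split.
Ngp: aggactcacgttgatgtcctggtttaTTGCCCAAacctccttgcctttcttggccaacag
Fcnb: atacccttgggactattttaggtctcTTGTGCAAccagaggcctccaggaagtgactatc
Ltf: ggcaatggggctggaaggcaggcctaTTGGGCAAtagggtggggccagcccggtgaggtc

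Of the tertiary granule and secretory vesicle genes, the last to be made, 5 of 10 were set apart lower (median -1.31). Mmp9, gelatinase B, which cuts denatured collagen, was at 283, 363 and 380.0 CPM in replicate 1 and 1572 to 1724 CPM (median 1656) in the others (-2.28 ± 0.10), and the membrane-anchored protease Mmp25 at 15.5, 17 and 13.3 CPM against 64.3 to 113 CPM (median 91.5, log2 fold change -2.51 ± 0.10). Itgam, the CD11b integrin chain, had -1.53 ± 0.073 and Cd55, a complement regulator, -2.19 ± 0.20. All 4 were lower in every replicate 1 library. Slc11a1 (Nramp1), an iron and manganese exporter of phagosomes shared with macrophages, was not lower (0.24). Of the 2 lysozyme genes, Lyz1 was at 6.33 to 12.3 CPM over all 9 libraries, with overlapping ranges (0.23), and as a close paralog of Lyz2 it can share its reads.

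The NADPH oxidase, which makes superoxide, was split. Of 9 subunits, 3 were set apart lower: the catalytic Cybb (-1.19 ± 0.073), the organiser Ncf1 (-1.11 ± 0.072) and the GTPase Rac2 (-1.31 ± 0.075), found in blood cells. Cybb stood at 628, 757 and 821 CPM in replicate 1 and 1402 to 1994 CPM (median 1634) elsewhere. Hvcn1, a proton channel, had 0.88, and the median of the 9 was -0.29.

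Among the granulocytic transcription factors, 4 of 12 were set apart lower (median -0.80): Cebpd (-1.23 ± 0.14), Cebpe, required for secondary granules (-1.22 ± 0.17), Mxd1, an antagonist of Myc partners (-1.33 ± 0.12), and Klf5 (-1.41 ± 0.26). Cebpe was at 7.16, 8.29 and 7.54 CPM in replicate 1 against 12.4 to 26.6 CPM (median 18). Cebpa (0.41) and Cebpb (-0.10) were not set apart. Progenitor genes were at low levels, with 5 of 9 set apart lower and a median of -1.99. Myb was at 4.75, 2.59 and 2.56 CPM in replicate 1 against 9.71 to 35.9 CPM (median 20.9, log2 fold change -2.66 ± 0.18), and Cd34 (-2.04 ± 0.28), Sox4 (-1.99 ± 0.28) and Erg (-2.11 ± 0.32) were on the same side.

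Cell cycle genes followed the progenitor genes: 20 of 29 were set apart lower and 1 higher, with a median of -1.33. Mki67, a marker of dividing cells, was at 60.5, 54.2 and 43.1 CPM in replicate 1 against 139 to 214 CPM (median 201, log2 fold change -1.86 ± 0.092). The kinesin Kif11 (-2.58 ± 0.24), the centromere protein Cenpf (-2.97 ± 0.28), the cyclin Ccna2 (-2.35 ± 0.23) and the kinase Plk1 (-2.32 ± 0.25) were lower in all replicate 1 libraries. Pcna, the DNA polymerase clamp, which also serves in repair, was the exception: it was at 228, 229 and 273 CPM in replicate 1 against 98.4 to 127 CPM (median 109.5, log2 fold change 1.13 ± 0.070).

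**Figure D3:**
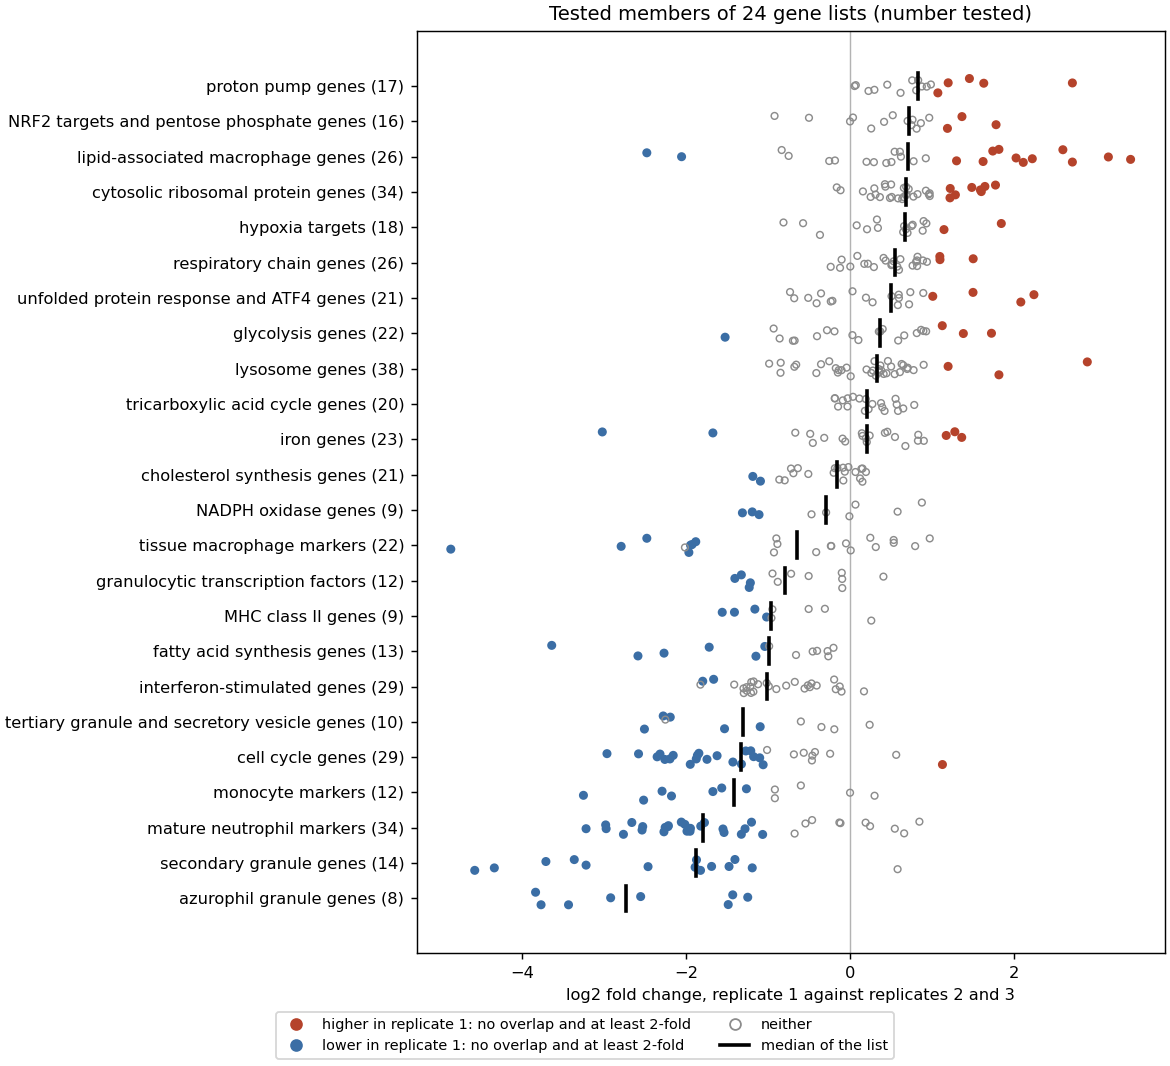
Fitted log2 fold change of replicate 1 against replicates 2 and 3 for the tested members of 24 gene lists, ordered by median (black bars). Filled points are set apart (red higher, blue lower; no overlap and at least 2-fold) and open points are not; medians run from 0.83 for proton pump genes to -2.74 for azurophil granule genes.

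Macrophage genes did not differ as a block. Of 22 tissue macrophage markers, 7 were set apart lower and 0 higher (median -0.65). The complement genes C1qa (27.4, 8.66 and 14 CPM in replicate 1 against 61.7 to 175 CPM, median 108; -2.79 ± 0.23) and C1qb (-1.97 ± 0.23), the lipid carrier Apoe (211, 88.1 and 154 CPM against 525 to 1482 CPM, median 712; -2.48 ± 0.23), the scavenger receptor Marco (-1.88 ± 0.42) and the fractalkine receptor Cx3cr1 (-1.95 ± 0.13) were lower in all 3 replicate 1 libraries. The general macrophage genes Adgre1 (0.25), Cd68 (0.01) and Msr1 (-0.23) were not set apart. Csf1r, the receptor for the macrophage growth factor, was at 616, 711 and 778 CPM in replicate 1 and 992 to 1712 CPM (median 1324) elsewhere, without overlap (-0.90 ± 0.082).

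Monocyte markers were lower: 7 of 12 were set apart lower (median -1.42). Fn1, fibronectin, was at 4.3, 12.9 and 10.6 CPM against 32.4 to 215 CPM (median 88.7, log2 fold change -3.25 ± 0.37), the chemokine receptor Ccr2 at 65.1, 16.3 and 17 CPM against 131 to 227 CPM (median 179, log2 fold change -2.52 ± 0.59), and F13a1, a coagulation factor subunit of monocytes, at 45.3, 53.1 and 57.7 CPM against 149 to 300.1 CPM (median 264, log2 fold change -2.18 ± 0.12). Plac8 had -2.29 ± 0.51. For Ccr2 the low-gel replicate 1 library was higher than the other replicate 1 libraries, and still below the lowest of the other 6. Cd14, the endotoxin co-receptor, was not set apart (0.30). Of 18 monocyte and macrophage transcription factors, Irf8 (-1.19 ± 0.12), Irf4 (-1.98 ± 0.14) and Maf (-1.27 ± 0.11) were set apart lower, and Bhlhe41 (1.36 ± 0.10) and Pparg (2.11 ± 0.29), the lipid-sensing receptor, set apart higher. Pparg was at a low level, 7.24, 5.18 and 4.69 CPM in replicate 1 and 0.324 to 2.71 CPM (median 1.23) in the others.

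The lipid-associated macrophage genes, a set described in lipid-laden tissue and lesions, went the other way. Of 26 members, 11 were set apart higher and 2 lower, with a median of 0.70 (0.64 after centring on length). Cd36, the scavenger receptor for oxidised lipid, was at 104 CPM in the low gel, 173 in the middle and 192 in the high in replicate 1 and at 10.8 to 35.8 CPM (median 14.7) elsewhere (3.15 ± 0.44). Lpl, lipoprotein lipase, was at 320.2 CPM in the low gel, 369 in the middle and 435 in the high against 31.9 to 182 CPM (median 48.6, log2 fold change 2.60 ± 0.49). Both were higher in each replicate 1 library than in any other. Mmp12, the macrophage elastase, was at 6.63, 24.4 and 28.9 CPM against 0.82 to 3.3 CPM (median 1.59, log2 fold change 3.42 ± 0.26). Plin2, which coats lipid droplets, was at 975, 977 and 1190.5 CPM against 232 to 306 CPM (median 252, log2 fold change 2.02 ± 0.084), and Spp1, osteopontin, at 530.2, 522 and 768 CPM against 139 to 251 CPM (median 182, log2 fold change 1.74 ± 0.087). Lgals3, galectin-3, had 1.62 ± 0.13, the tetraspanin Cd63 1.81 ± 0.10 and the fatty acid carrier Fabp4 2.22 ± 0.52. The 2 members set apart lower were Apoe and the cholesterol exporter Abca1 (61.6, 61.4 and 77.2 CPM against 222 to 396 CPM, median 255; -2.06 ± 0.10). The related exporter Abcg1 was not set apart (-0.18). Summed over the list, the level was 25910 to 28270 CPM in replicate 1 and 12770 to 23450 in the other 6.

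Lysosome genes differed less: 3 of 38 were set apart higher (6.43% over all tested genes) and 0 lower (12.4%). Their median was 0.33 (0.23 after centring on length). The 3 were Ctsk, the collagen-cutting cathepsin K, at 114, 81.5 and 84.7 CPM in replicate 1 against 9.16 to 17.8 CPM (median 11.7, log2 fold change 2.89 ± 0.094), Cd63, and Gla, alpha-galactosidase (1.20 ± 0.074). The proteases Ctsd (0.61) and Ctsb (0.54) and the activator precursor Psap (0.70) were under 2-fold. The proton pump that acidifies the lysosome had 5 of 17 subunits set apart higher and 0 lower, with a median of 0.83 (0.47 after centring on length). Atp6v0d2, the subunit of osteoclasts and macrophages, was at 35.5, 52.7 and 48.3 CPM in replicate 1 against 3.56 to 10.1 CPM (median 7.51, log2 fold change 2.71 ± 0.25). The cytosolic subunits Atp6v1f (1.63 ± 0.089), Atp6v1c1 (1.46 ± 0.085) and Atp6v1h (1.20 ± 0.081) and the membrane subunit Atp6v0b (1.07 ± 0.072) were also higher in each replicate 1 library, and no subunit had a negative value.

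The letters TCACGTGA (8 bases, the same on both strands), the core of the CLEAR element through which TFEB-family factors act on lysosome genes, were found in the promoter windows of 5 of 30 lysosome genes (16.7%) and 3 of 12 proton pump genes (25.0%), against 2.22% of the 9737 tested genes with a window and 1.12% of all genes with one. As these factors act on lysosome genes through this element, the higher shares can follow from the choice of lists and are no result of the split. Of the genes for these factors, Tfec had 0.72 ± 0.14, Mitf -0.14 ± 0.063, Tfeb -0.24 ± 0.093 and Tfe3 -0.50 ± 0.064, and none was set apart. The windows of Gla, set apart, and of Ctsd, which was not, are shown as 1 example of each, with 1 match in capitals. Gla has another, which begins 195 bases upstream of the start, so that the stretch shown ends within it, in lower case. They lie at chrX:134601196-134601255, minus strand and chr7:142387893-142387952, minus strand, of GRCm38.p6.
Gla: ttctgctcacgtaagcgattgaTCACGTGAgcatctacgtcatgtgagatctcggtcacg
Ctsd: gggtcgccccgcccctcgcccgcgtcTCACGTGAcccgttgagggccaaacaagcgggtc

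Osteoclast genes, which share the proton pump and cathepsin K with macrophages, had 3 of 11 members set apart higher (Ctsk, Atp6v0d2 and Ostm1 at 1.15 ± 0.066) and 1 lower, Nfatc1, the osteoclast transcription factor (-1.18 ± 0.072). Their median was 0.22. Acp5, the tartrate-resistant phosphatase used as an osteoclast marker, was at 34.4, 42.4 and 45.3 CPM in replicate 1 and 60.2 to 84.9 CPM (median 73.2) in the others. Among 16 genes for the clearance of dying cells, Cd36 and Mfge8, a bridge to phosphatidylserine (24.2, 37.1 and 51.7 CPM against 4.11 to 10.6 CPM, median 5.23; 2.60 ± 0.35), were set apart higher, and C1qa and Pros1 (-1.62 ± 0.25), 2 other bridging proteins, lower. The receptor Mertk had -0.93 and Axl -2.02, and the median was -0.76.

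Iron genes had no common direction. Of 23, 3 were set apart higher and 2 lower, with a median of 0.20, and after centring on length 1 was set apart higher and 2 lower. Of the storage genes only Ftl1 was set apart before centring, and Fth1 (0.67), Pcbp1 (0.55), Pcbp2 (0.42) and Ncoa4 (0.14) were not. Ftl1, the ferritin light chain, was at 10313 CPM in the low gel, 11900 in the middle and 13547 in the high in replicate 1 and at 4193 to 5757 CPM (median 4979) in the other libraries (1.28 ± 0.11, 0.82 after centring on length). Slc11a2 (DMT1), which moves iron out of endosomes, was at 122, 138 and 148 CPM against 49.3 to 66.9 CPM (median 62, log2 fold change 1.17 ± 0.087). Both were higher in each replicate 1 library. The transferrin receptor Tfrc (0.83) and the exporter ferroportin, Slc40a1 (0.90), were higher by under 2-fold. Cp, ceruloplasmin, which oxidises iron as it leaves the cell, was at 7.09, 2.44 and 2.99 CPM in replicate 1 against 25.4 to 38.5 CPM (median 35.7, log2 fold change -3.02 ± 0.34), and Steap4, a metalloreductase, at 11.3, 11.3 and 6.97 CPM against 11.9 to 67.4 CPM (median 39.1, log2 fold change -1.67 ± 0.53). Hamp, hepcidin, was set apart higher at no more than 1.58 CPM in any library. Of the 2 iron regulatory proteins, Aco1 had 0.20 and Ireb2 0.19. Summed over the list, the level was 37360 to 49170 CPM in replicate 1 and 22360 to 27740 in the other 6, most of it ferritin.

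Of 19 heme genes, 2 were set apart higher and 2 lower (median 0.00). The heme exporter Flvcr1 was at 219.9, 181 and 165 CPM in replicate 1 against 64.4 to 86.2 CPM (median 75.9, log2 fold change 1.29 ± 0.065), and Alad, of heme synthesis, had 1.00 ± 0.17. The 2 lower members were Hp and Cd163, the receptor that takes up haptoglobin with hemoglobin, at 0.0754, 0.074 and 0.355 CPM against 1.84 to 8.61 CPM (median 4.96). Hmox1, heme oxygenase, which frees iron from heme, was at 1058 CPM in the low gel, 1576 in the middle and 2056 in the high in replicate 1 and 740.5 to 826 CPM (median 778) elsewhere, without overlap and just under 2-fold (0.96 ± 0.12).

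Glycolysis genes were mixed, with 3 of 22 set apart higher, 1 lower and a median of 0.36. After centring on length 2 were set apart higher and 2 lower, with a median of 0.3. Pgk1, a kinase of the payoff phase, was at 105, 178 and 174 CPM in replicate 1 against 36.4 to 64.8 CPM (median 41.4, log2 fold change 1.72 ± 0.12), Hk3, the hexokinase of myeloid cells, at 837, 705 and 669 CPM against 209 to 350.3 CPM (median 275, log2 fold change 1.38 ± 0.080), and Pgam1 had 1.12 ± 0.078. Pfkfb4, a regulator of flux, was lower (-1.52 ± 0.10), as was, by under 2-fold, the glucose transporter Slc2a3 (-0.86), while Slc2a1 had 0.40. Pgk1, Pgam1 and Gapdh (19.4 to 23.7 CPM in 8 libraries and 12.8 in low replicate 1) have processed copies in the genome, so their counts are uncertain. Of 18 hypoxia targets 2 were set apart higher and 0 lower (median 0.67, and 0.54 after centring on length). Hilpda, a lipid droplet protein induced by low oxygen, was at 90.5, 121 and 142 CPM against 20.6 to 52.4 CPM (median 31.1, log2 fold change 1.84 ± 0.094), and Ndrg1 at 112, 145 and 162 CPM against 51.2 to 72.2 CPM (median 65.1, log2 fold change 1.15 ± 0.069). Vegfa had 0.33 and Bnip3 0.75.

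Mitochondrial genes showed small differences. None of 20 tricarboxylic acid cycle genes was set apart, with a median of 0.21 that became 0.02 after centring on length. Sdha, of complex II, had 0.38 and Ogdh, a dehydrogenase of the cycle, -0.19. Of 26 respiratory chain genes, many of them short, 3 were set apart higher (Ndufa2 1.50 ± 0.15, Cox7a2 1.10 ± 0.11, Cox5a 1.09 ± 0.084), with a median of 0.55 and of 0.35 after centring. Of 16 fatty acid oxidation genes, 1 was set apart, Ppargc1b, a coactivator of mitochondrial genes, which was lower (-2.10 ± 0.28). Their median was 0.15, and the ranges of Hadha (0.09) and Ppard (-0.17) overlapped.

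Fatty acid synthesis was lower in replicate 1: 6 of 13 genes were set apart lower and 0 higher, with a median of -0.99 (-0.78 after centring on length). Scd1, the desaturase that makes oleate, was at 5.88 CPM in the low gel, 3.18 in the middle and 4.69 in the high in replicate 1 and 37.1 to 72.7 CPM (median 61.3) in the others (-3.64 ± 0.12). Its paralog Scd2 was at 17.9, 56.1 and 52.7 CPM against 182 to 305 CPM (median 226, log2 fold change -2.59 ± 0.27). Both were lower in each replicate 1 library. The elongase Elovl6 (-2.27 ± 0.23), the desaturase Fads2 (-1.72 ± 0.16) and Acaca, the entry enzyme (-1.15 ± 0.13), were on the same side, and Acly, which supplies acetyl-CoA, was not (-0.20). Of 21 cholesterol synthesis genes 2 were set apart lower (12.4% over all tested genes), among them the reductase Dhcr7 (-1.09 ± 0.12). Their median was -0.16.

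Of 16 NRF2 targets and pentose phosphate genes, 3 were set apart higher and 0 lower, with a median of 0.72. After centring on length 4 were set apart higher and 1 lower, with a median of 0.53. Prdx1, a peroxidase that is a classic NRF2 target, was at 3595 CPM in the low gel, 6003 in the middle and 7416 in the high in replicate 1 and 1281 to 2078 CPM (median 1602) elsewhere (1.78 ± 0.14). Gclm, a subunit of the first enzyme of glutathione synthesis, was at 521, 788 and 914 CPM against 246 to 326 CPM (median 282, log2 fold change 1.36 ± 0.080), and Srxn1, which restores oxidised peroxiredoxin, had 1.19 ± 0.073. The cystine transporter Slc7a11 (0.75) and the reductase Txnrd1 (0.70) were higher by under 2-fold. G6pdx, the entry enzyme of the pentose phosphate path and a supplier of NADPH to the oxidase, was lower (149, 216 and 266 CPM against 356 to 414 CPM, median 401; -0.92). The letters TGACNNNGC (9 bases, both strands), the core of the antioxidant response element that NRF2 binds, were found in 7 of 13 genes of the list with a window (53.8%), in 17.0% of tested genes with a window and in 14% of all genes with one. Prdx1, set apart higher, and G6pdx, lower, both hold them, on the opposite strand, at chr4:116685441-116685500, plus strand and chrX:74428903-74428962, minus strand of GRCm38.p6, and are shown for that contrast with the letters in capitals. Since the list was made of NRF2 targets, a higher share of these letters can follow from its making and is no result of the split.
Prdx1: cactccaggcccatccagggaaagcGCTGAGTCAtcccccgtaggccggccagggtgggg
G6pdx: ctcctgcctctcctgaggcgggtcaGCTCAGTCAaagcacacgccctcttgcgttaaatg

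Of 12 arginine and polyamine genes, 3 were set apart higher and 0 lower, with a median of 0.70. After centring on length 2 were set apart higher and 0 lower, with a median of 0.54. Odc1, the first enzyme of polyamine synthesis, was at 337, 354 and 473 CPM in replicate 1 against 88 to 144 CPM (median 114, log2 fold change 1.78 ± 0.070). Nos2, the inducible nitric oxide synthase, was at 63.9, 65.5 and 71.9 CPM against 27.9 to 37.6 CPM (median 30.7, log2 fold change 1.09 ± 0.071), and Asl, which remakes arginine, had 1.10 ± 0.090. Arg1 did not separate: it was at 2.11, 22.8 and 24 CPM in replicate 1 and 1.69 to 33.3 CPM (median 5.37) elsewhere. Of 34 cytosolic ribosomal protein genes 8 were set apart higher and 0 lower, among them Rpl12 (1.64), Rpl13 (1.60) and Rps14 (1.59). After centring on length 5 were set apart higher, and their median of 0.68 became 0.28, and many have processed pseudogenes that can share reads. Of 21 unfolded protein response and ATF4 genes 4 were set apart higher and 0 lower (median 0.50, and 0.38 after centring on length). The pseudokinase Trib3 was at 103, 119 and 112 CPM in replicate 1 against 19.5 to 32.6 CPM (median 21.7, log2 fold change 2.24 ± 0.10), Ddit3 (CHOP) at 296, 248 and 257 CPM against 53.3 to 72 CPM (median 62.4, log2 fold change 2.08 ± 0.066), and Atf3 at 1082, 722 and 807 CPM against 265 to 339 CPM (median 306, log2 fold change 1.50 ± 0.10). All 3 were higher in each replicate 1 library, Chac1 followed (1.01 ± 0.18), and the chaperone Hspa5 had 0.72.

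Inflammatory genes had no common direction. Of 14 N1 markers, the genes used for a pro-inflammatory neutrophil state, Il12b (at most 11.4 CPM), Ccl4 (1.20 ± 0.067) and Nos2 were set apart higher and Il1b (-1.42 ± 0.19) and Il18 (-1.11 ± 0.16) lower (median 0.28, -0.06 after centring on length and -0.01 without the low replicate 1 library). Of 13 N2 markers, Mmp9 and Chil3 (-1.43 ± 0.29) were set apart lower and 0 higher (median -0.32). Il1b, interleukin-1 beta, was at 1146 CPM in the low gel, 1220.2 in the middle and 1397 in the high in replicate 1 and 1884 to 5358 CPM (median 3784) elsewhere, and Tnf at 512, 619 and 784 CPM against 385 to 550.3 CPM (median 472) (0.44). Of 17 chemokine genes Ccl4 and Ccl7 (1.38 ± 0.088) were set apart higher and Ccl6 (-2.33 ± 0.14) and Pf4 (-1.38 ± 0.39) lower (median -0.04). After centring on length 0 chemokine genes were set apart higher and 2 lower (median -0.22). Of 25 NF-kB targets and subunits only Il1b was set apart (median 0.17, and -0.08 without the low replicate 1 library). Of 29 interferon-stimulated genes 2 were set apart lower, Oas2 (-1.67 ± 0.25) and Zbp1 (99.8, 48.2 and 37.7 CPM against 137 to 249.8 CPM, median 204), and the median was -1.02. That median hid a gel dependence: it was -0.18 in the low gel, -1.43 in the middle and -1.28 in the high.

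Of 9 MHC class II genes 4 were set apart lower (median -0.96), among them the transactivator Ciita (-1.41 ± 0.19), the invariant chain Cd74 (-1.02 ± 0.088) and H2-DMa (-1.16 ± 0.11). Of 21 immediate early genes Atf3 and Hspa1a (1.30 ± 0.12) were set apart higher and Egr1 (-1.08 ± 0.25) and Egr3 (-1.97 ± 0.60) lower (median -0.10). Of 25 apoptosis and survival genes the pro-death Bax (1.58 ± 0.10) and Bid (1.20 ± 0.067) were set apart higher and Bak1 (-1.15 ± 0.10), which can act in place of Bax, lower (median -0.03). Bax was at 322, 322 and 347 CPM in replicate 1 against 93.1 to 128 CPM (median 111), and Bak1 at 88.7, 78.9 and 84.2 CPM against 139.9 to 219.5 CPM (median 188). Both pairs of ranges were apart, in opposite directions.

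Markers of other blood cells also differed and stand beside every result above. B cell markers were set apart lower in 8 of 9 members (median -1.91), and their summed level was 41.4 to 74.5 CPM in replicate 1 and 129 to 259.7 in the other 6. Pax5, the B cell factor, was at 10.3, 4.07 and 5.05 CPM in replicate 1 against 27.5 to 63.4 CPM (median 51.4, log2 fold change -2.91 ± 0.19). Of 9 eosinophil markers 8 were set apart lower (median -2.79), with Prg2, the major basic protein, at 9.12, 3.48 and 4.91 CPM against 16.2 to 44.2 CPM (median 35.4), and a summed level of 6.37 to 17.3 CPM in replicate 1 and 37.5 to 92.5 in the other 6. All 9 megakaryocyte and platelet markers were set apart lower (median -2.10; summed 38.7 to 59.2 CPM in replicate 1 and 138 to 270.1 in the other 6), led by Ppbp (-3.33 ± 0.30). T cell markers had 5 of 8 set apart lower and Cd247 higher (median -2.18; summed 8.03 to 12.7 CPM in replicate 1 and 12.2 to 39.8 in the other 6), and Cd3g was at 0 counts in the low and middle replicate 1 libraries. The 2 tested NK cell markers, Klrd1 (-2.02) and Nkg7 (-2.05), were not set apart (summed 0.962 to 2.94 CPM in replicate 1 and 2.98 to 6.27 in the other 6).

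The other marker lists were mixed. Erythroid markers had 3 of 8 set apart higher and 1 lower (median 0.87; after centring on length 1 and 1, median 0.58; summed 459 to 812 CPM in replicate 1 and 236 to 558 in the other 6), including the globin genes Hba-a1 (1.16) and Hbb-bt (1.18), which have near-identical copies. Of 8 basophil and mast cell markers none was set apart (median -0.27, and 0.14 without the middle replicate 1 library; summed 25.3 to 88.7 CPM in replicate 1 and 41 to 62.4 in the other 6). Dendritic cell markers had 1 of 11 set apart higher and 2 lower (median -0.10; summed 54.8 to 93.1 CPM in replicate 1 and 55 to 96.7 in the other 6), and stromal and endothelial markers 2 of 9 lower (median -0.63; summed 44 to 68.1 CPM in replicate 1 and 69.2 to 91.7 in the other 6). The 4 Y-linked genes, among them Ddx3y (-0.28) and Eif2s3y (0.09), were present in all 9 libraries and not set apart (median -0.09). The part of other cell types in the lower granule and cell cycle genes or in the higher macrophage genes was not tested.

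**Figure D4:**
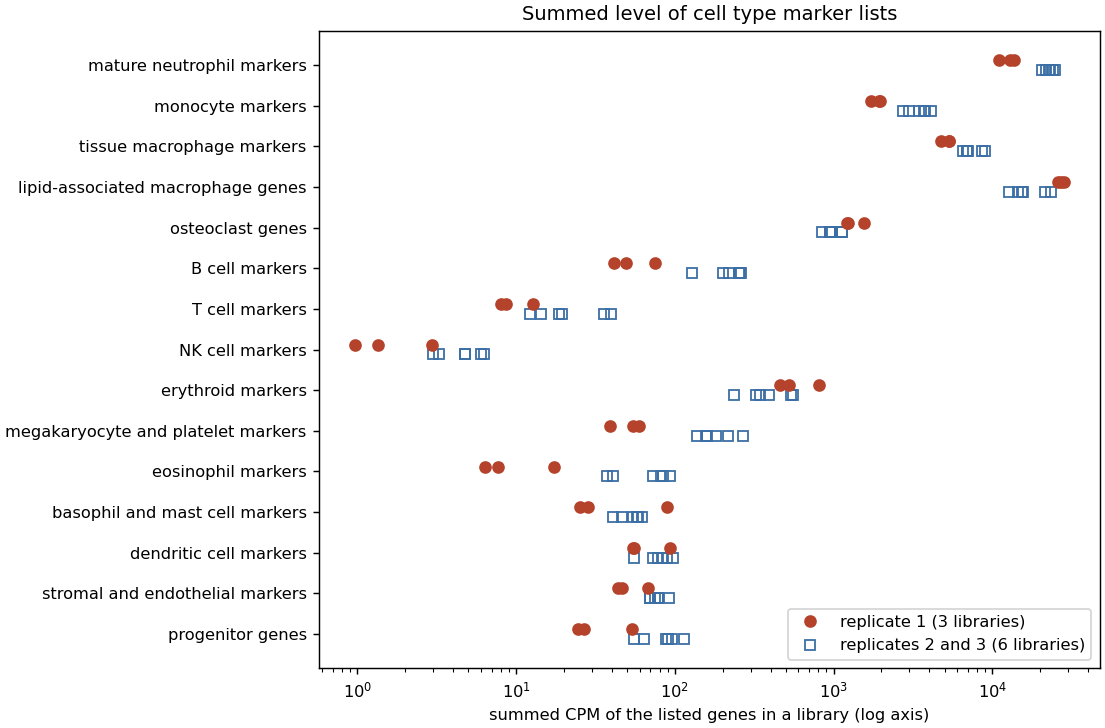
Summed level (CPM, log axis) of 15 cell type marker lists in each library. Replicate 1 (filled circles) is lower than all other libraries (open squares) for neutrophil, monocyte, tissue macrophage, B cell, NK cell, megakaryocyte, eosinophil, stromal and progenitor markers and higher for lipid-associated macrophage and osteoclast genes; erythroid, T cell, basophil and dendritic cell markers overlap.

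Over all genes, the 15 largest decreases among set-apart genes of at least 5 CPM on average held, beside granule genes (Ngp, Fcnb, Prtn3, Elane, Ltf, Mpo), the lipid transporter Abca13 (2.04, 2.59 and 1.71 CPM in replicate 1 against 35.7 to 46.6 CPM, median 39.5; -4.26 ± 0.14), the matrix protein Spon1 (-4.05 ± 0.32), Timp3, an inhibitor of matrix proteases (-4.01 ± 0.25), Cass4, an adhesion scaffold (-3.82 ± 0.41), and Scd1. The rest were Sycp2 (-3.92), Muc3a (-3.86), Gpr27 (-3.68) and F2rl2 (-3.59). The 15 largest increases held, beside Mmp12, Cd36, Ctsk, Atp6v0d2, Mfge8 and Lpl, the somatostatin receptor Sstr5 (2.59 ± 0.17), the guanylate cyclase Gucy2c (2.58 ± 0.20), the cell cycle inhibitor Cdkn1c (80.1, 67.7 and 80.6 CPM against 8.16 to 19 CPM, median 16.4; 2.43 ± 0.19), Emp1 (2.40 ± 0.17) and the aldo-keto reductase Akr1b8 (2.34 ± 0.26). Mid1 (2.48), Rab15 (2.41), Tmem140 (2.38) and Efr3b (2.34) completed them. Gucy2c and Rab15 were highest in the low replicate 1 library, at 44.5 and 115 CPM. Of all tested genes 9131 (75.5%) had the same sign in all 3 gels, and 1483 (12.3%) were at least 2-fold apart in each.

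The remaining comparison asks whether stiffness moved genes alike in replicate 1 and in replicates 2 and 3. This contrast did not define the split. The effect of high against low stiffness differed for 1011 of 12094 genes in edgeR's quasi-likelihood interaction test (8.36%), of which 305 (2.52%) were more positive and 706 (5.84%) more negative in replicate 1, and 2774 (22.9%) passed unadjusted. For middle against low it was 315 genes (2.60%), 59 positive (0.488%) and 256 negative (2.12%), and for high against middle 31 (0.256%), 12 positive (0.0992%) and 19 negative (0.157%). Replicate 1 has 1 library per gel, so its spread was taken from replicates 2 and 3. The values behind the split had put these together, so their spread may be too small for replicate 1. The p-values may then be too small and the counts too high. The comparisons with low share the low libraries, and their counts are not independent. The counts moved with the single libraries that could be left out. A contrast cannot be estimated without either of its own replicate 1 libraries. For high against low, 514 genes were called without low replicate 2, 602 without middle replicate 2 and 1603 without high replicate 2. For middle against low the count was 115 without middle replicate 2, 140 without middle replicate 3, 170 and 198 without low replicate 2 or 3, and 562 and 593 without high replicate 2 or 3. For high against middle it was 6 without middle replicate 3, 10 without middle replicate 2, 89 without high replicate 3 and 289 without high replicate 2, and 60 in a fit with a block for replicate number.

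By their medians, lipid-associated macrophage genes were lower in the high than in the low gel in replicates 2 and 3 (-0.51 and -0.66) and not in replicate 1 (0.18). Of the 26 lipid-associated macrophage genes, 14 had a called positive difference in the high against low effect and 1 a negative one. The high minus low difference of Lpl was 0.44 in replicate 1, -2.15 in replicate 2 and -2.51 in replicate 3, an interaction of 2.76 ± 0.17 (edgeR adjusted p = 1.25e-05). Cd36 had 0.88 in replicate 1, -1.17 in replicate 2 and -1.59 in replicate 3, with 2.25 ± 0.21 (edgeR adjusted p = 0.00012). Fabp4 had 0.41 in replicate 1, -2.63 in replicate 2 and -1.95 in replicate 3, with 2.75 ± 0.27 (edgeR adjusted p = 0.000129). Igf1, a growth factor made by macrophages and not in that list, had 2.43 ± 0.22 (edgeR adjusted p = 8.07e-05). Gpnmb differed as well: -0.31 in replicate 1, -1.25 in replicate 2 and -1.55 in replicate 3, with 1.09 ± 0.18 (edgeR adjusted p = 0.00374). For middle against low, Cd36 (2.16 ± 0.21, edgeR adjusted p = 0.000428), Lpl (2.10 ± 0.17, edgeR adjusted p = 0.000328) and Fabp4 (2.34 ± 0.27, edgeR adjusted p = 0.00122) were again among the called genes. In Cd36, Lpl and Fabp4 the sign of the high minus low difference was positive in replicate 1 and negative in both others.

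Tissue macrophage markers gave 10 positive and 2 negative calls of 22. Cd5l, a secreted scavenger protein of tissue macrophages, was at 16.4, 9.25 and 15.4 CPM in replicate 1 from low to high, and went from 70.4 and 54.8 CPM in the low gel to 4.69 and 2.98 in the high gel of replicates 2 and 3 (interaction 3.92 ± 0.33, edgeR adjusted p = 7.25e-05). Marco, a scavenger receptor, was at 38, 143 and 174 CPM in replicate 1 and between 374 and 465 CPM in every other library, with an interaction of 2.07 ± 0.17 (edgeR adjusted p = 7.25e-05) for high and 1.91 ± 0.17 (edgeR adjusted p = 0.000328) for middle against low. The mannose receptor Mrc1 had 1.64 ± 0.17 (edgeR adjusted p = 0.000183). Of 38 lysosome genes 7 were called, all positive, among them the protease Lgmn (1.09 ± 0.12, edgeR adjusted p = 0.00025).

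Secondary granule genes gave 7 positive calls of 14 and 0 negative. In replicates 2 and 3 Ngp was lower in the high gel, and in replicate 1 it was near its low level in every gel: the high minus low differences were -0.23 in replicate 1, -1.71 in replicate 2 and -1.76 in replicate 3, with an interaction of 1.50 ± 0.13 (edgeR adjusted p = 7.25e-05) and, for high against middle, of 1.15 ± 0.13 (edgeR adjusted p = 0.00399). Ltf had 1.33 ± 0.24 (edgeR adjusted p = 0.00785), Camp 2.19 ± 0.39 (edgeR adjusted p = 0.0197) and Ly6g, of the mature neutrophil list, 3.12 ± 0.29 (edgeR adjusted p = 0.000109). That list had 6 positive and 10 negative calls of 34; Il1r2, the decoy receptor for interleukin-1, was the most negative of these at -2.61 ± 0.15 (edgeR adjusted p = 5.96e-06). The azurophil genes Mpo (-2.36 ± 0.37, edgeR adjusted p = 0.00615) and Elane (-2.30 ± 0.47, edgeR adjusted p = 0.025) were called for middle against low, where the difference was more negative in replicate 1. Elane lost the call without middle replicate 2 (edgeR adjusted p = 0.0718).

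NF-kB targets were higher in the high than in the low gel in replicates 2 and 3, by their medians, and less so in replicate 1. Of 25 members, 18 had a called negative interaction for high against low and 0 a positive one; the median high minus low difference was 0.14 in replicate 1, 0.94 in replicate 2 and 0.90 in replicate 3. Rel, a subunit, had -0.24 in replicate 1, 1.38 in replicate 2 and 1.32 in replicate 3, with -1.59 ± 0.16 (edgeR adjusted p = 0.000129). Ptgs2, cyclooxygenase-2, had 0.58 in replicate 1, 1.71 in replicate 2 and 1.88 in replicate 3, with -1.22 ± 0.14 (edgeR adjusted p = 0.000281). Tnfaip3, the A20 inhibitor, had -0.16 in replicate 1, 0.99 in replicate 2 and 1.02 in replicate 3, with -1.17 ± 0.12 (edgeR adjusted p = 0.000195). Of 14 N1 markers 6 were negative and 0 positive, including Il6 (-0.75 in replicate 1, 1.70 in replicate 2 and 2.30 in replicate 3; -2.78 ± 0.34, edgeR adjusted p = 0.000516), Cd80, a co-stimulator (-1.45 ± 0.17, edgeR adjusted p = 0.000361), and Il1b (-1.06 ± 0.17, edgeR adjusted p = 0.00321). Lif, a cytokine of the interleukin-6 family, had -2.38 in replicate 1, 2.01 in replicate 2 and 1.58 in replicate 3, with -4.27 ± 0.38 (edgeR adjusted p = 7.93e-05), and the orphan receptor Nr4a2 -3.76 ± 0.41 (edgeR adjusted p = 0.000197). In Il6, Lif and Nr4a2 the sign was negative in replicate 1 and positive in the other pair.

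Interferon-stimulated genes were lower in the high than in the low gel in all 3 replicate numbers by their medians, and by more in replicate 1: the median high minus low difference was -1.83 in replicate 1, -0.81 in replicate 2 and -0.47 in replicate 3. Of 29 genes, 23 had a called negative interaction for high and 24 for middle against low, 0 a positive one, and 0 were called for high against middle. Irf7, the amplifying factor, had -2.11 in replicate 1, -0.85 in replicate 2 and -0.51 in replicate 3, with an interaction of -1.44 ± 0.16 (edgeR adjusted p = 0.000295). Ifih1 (MDA5), an RNA sensor, was at 158 CPM in the low gel, 63.1 in the middle and 41.8 in the high, with -1.89 ± 0.24 (edgeR adjusted p = 0.0012), and Slfn4, of a family with close paralogs, had -2.69 ± 0.28 (edgeR adjusted p = 0.000642). In all 3 the low replicate 1 library lay well above the middle and high ones, and the other 6 libraries spanned a narrower range.

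**Figure D5:**
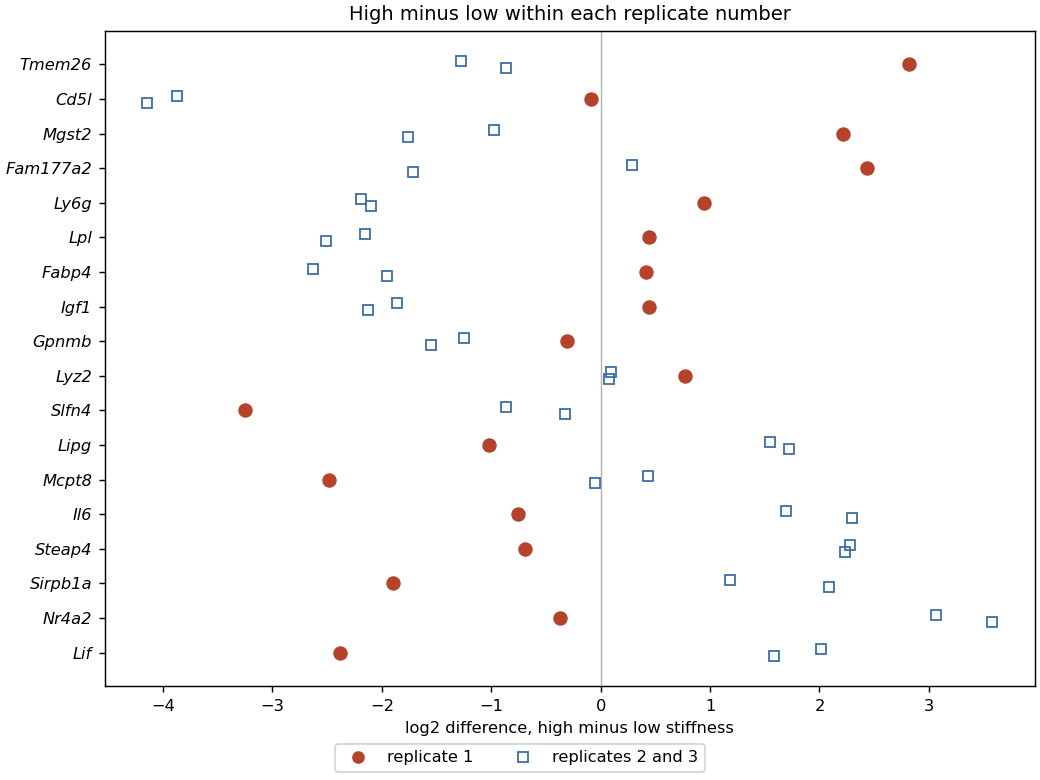
High minus low log2 difference within each replicate number for 18 genes: the 8 largest positive and 8 largest negative interactions by the naming rule, with Gpnmb and Lyz2. Filled circles are replicate 1 and open squares replicates 2 and 3; for Lpl, Fabp4, Igf1 and Ly6g replicate 1 is above 0 and the others below, and for Lif, Il6 and Steap4 the reverse.

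Some monocyte and iron genes also differed. The median high against low interaction of the iron list was 0.10, against -0.01 over all tested genes. Ccr2 had a middle minus low difference of -1.99 in replicate 1, 0.50 in replicate 2 and 0.63 in replicate 3, with -2.56 ± 0.24 (edgeR adjusted p = 0.000407), and Plac8 had -2.64 ± 0.25 (edgeR adjusted p = 0.000129) for high against low. Of 12 monocyte markers 5 were called negative and 0 positive. Steap4 had a high minus low difference of -0.69 in replicate 1, 2.28 in replicate 2 and 2.23 in replicate 3, with -2.96 ± 0.29 (edgeR adjusted p = 0.000128). Cp had -1.62 ± 0.31 (edgeR adjusted p = 0.00704). Of 23 iron genes 1 was called positive (Steap3) and 3 negative, and neither ferritin chain was called. Of 16 NRF2 and pentose phosphate genes 6 were positive and 1 negative, including Hmox1 (0.86 ± 0.12, edgeR adjusted p = 0.00143) and G6pdx (0.68 ± 0.12, edgeR adjusted p = 0.00444). Lyz2 had 0.77 in replicate 1, 0.10 in replicate 2 and 0.08 in replicate 3, with 0.68 ± 0.16 (edgeR adjusted p = 0.0209). Erythroid markers gave 6 positive calls of 8, among them Hbb-bs (1.75 ± 0.21, edgeR adjusted p = 0.000477), whose level in replicate 1 was 294 CPM in the low gel, 335 in the middle and 488 in the high. Basophil and mast cell markers gave 3 negative calls of 8, led by Mcpt8, a basophil protease, at 17.6, 3.85 and 3.06 CPM in replicate 1 and 3.3 to 4.58 CPM (median 3.43) elsewhere (-2.75 ± 0.38, edgeR adjusted p = 0.0012).

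Every interaction rests on 1 replicate 1 library per gel. In the contrasts with low, low replicate 1 stood apart in Lif (16.1 CPM against 4.66 in middle and 2.99 in high replicate 1), Ccr2 and Mcpt8. For high against middle, middle replicate 1 stood apart from low and high replicate 1 in Lars2, a mitochondrial tRNA ligase, and LOC118568312. They stood at 147 and 744 CPM there, against 48.9 and 224 in low and 41.7 and 212 in high replicate 1. The others held 12.03 to 19.9 and 144 to 207 CPM (interactions -2.21 ± 0.24 and -2.09 ± 0.21). The complement genes C1qa (1.39 ± 0.20, edgeR adjusted p = 0.0125), C1qb (1.22 ± 0.17, edgeR adjusted p = 0.00943) and C1qc (1.09 ± 0.17, edgeR adjusted p = 0.025) and Apoe (1.22 ± 0.15, edgeR adjusted p = 0.0051) were positive. Il1r2 (-1.33 ± 0.15, edgeR adjusted p = 0.00399), Dusp16, a phosphatase of MAP kinases (-1.25 ± 0.14, edgeR adjusted p = 0.00399), and Cass4 (-1.45 ± 0.26, edgeR adjusted p = 0.0484) were negative. Of the 16 genes named for high against middle, 11 lost the call when 1 library was left out, each of them without middle replicate 2 or 3 and none of these being Ngp, Il1r2, Dusp16, Lars2 or LOC118568312.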

How the data were processed

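Messenger RNA was sequenced from 9 samples (paired 150-base reads, stranded libraries). Per the submitters' processing notes, reads were trimmed with cutadapt 1.9.1, aligned with HISAT2 2.0.1 to GRCm39 and counted with HTSeq 0.6.1, and DESeq2 is named with no version; the settings and the annotation were not given in the sources used here. The authors deposited raw read counts per gene and FPKM values, per the file headers. The counts were used for every test. The deposited FPKM values were not tested. The RPKM levels in the text were computed from the counts and the exonic size.

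The counts of 22173 genes were filtered by edgeR's filterByExpr on stiffness group, which left 12094; 4937 genes had 0 counts in every library. After TMM scaling, edgeR 4.0.16 (R 4.3.3, limma 3.58.1) was fitted by quasi-likelihood with Benjamini-Hochberg adjustment (threshold 0.05): replicate 1 against 2 and 3 with stiffness as a term (its p-values give only 1 background share), 3 interaction contrasts between stiffness and replicate 1, and replicate 3 against 2. These steps were also run on simulated counts that had no broad shift between replicate numbers. That setting differs from these data, so the run is not used as support. Total counts are given in the text, and with 1 library of each stiffness and replicate number the number of libraries limits the precision.

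The members, gene lists, motifs and tests were chosen with earlier results of these data known. The genes named are the 4 markers, the 15 highest and 15 lowest set-apart genes that average 5 CPM or more and have no predicted-gene symbol, up to 4 set-apart members per list and side or the 2 most abundant, members needed to describe a role, and the 8 largest called interactions in each direction. A few genes that this rule takes in are not reported here. Of 49 lists 48 had a tested member; none of the nuclear long noncoding RNA list was tested. Alternatives were DESeq2 1.42.0, other scaling factors, no filter, other fold minimums, leaving out each library and a replicate block. Thinning to the smallest total and centring on exonic length (20 length bins) were chosen after seeing the data. The replicate number is the variable compared, so it was not used as a block in the reported replicate 1 and interaction fits. The fit of replicate 3 against 2 held the replicate number as a term beside stiffness group. In it edgeR called 0 genes between replicates 3 and 2 and 150 at an unadjusted p under 0.05. Its spread came from all 9 libraries and so held the differing stiffness effects of replicate 1, which can make the test less sensitive. A fit of replicates 2 and 3 alone also called 0 of 12214 genes. Figures were drawn with Python 3.11.15 and matplotlib 3.10.9. Promoter windows came from RefSeq (GRCm38.p6); because the counts were made on GRCm39, no other coordinates are given.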

Additional observations from a re-analysis of the deposited data

Results flagged for a closer look

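The effect of stiffness differed between replicate 1 and replicates 2 and 3 in edgeR's interaction test for 1011 genes (high minus low), 315 genes (middle minus low) and 31 genes (high minus middle) at an adjusted p under 0.05. The values below are the log2 difference of the effect, replicate 1 minus replicates 2 and 3, for the genes named by size and for the marker genes that were called.

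For high minus low the effect was more positive in replicate 1 for Tmem26 (3.96), Cd5l (3.92), Mgst2 (3.60), Fam177a2 (3.33), Ly6g (3.12), Lpl (2.76), Fabp4 (2.75), Igf1 (2.43), Gpnmb (1.09) and Lyz2 (0.68). These hold the macrophage genes Cd5l, Lpl, Fabp4, Igf1 and Gpnmb beside the neutrophil antigen Ly6g. It was more negative for Lif (-4.27), Nr4a2 (-3.76), Sirpb1a (-3.62), Steap4 (-2.96), Il6 (-2.78), Mcpt8 (-2.75), Lipg (-2.72) and Slfn4 (-2.69), among them the cytokines Lif and Il6 and the basophil protease Mcpt8.

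For middle minus low it was more positive for Tmem26 (3.41), Fabp4 (2.34), Cd36 (2.16), Lpl (2.10), Mgst2 (2.09), Marco (1.91), LOC118568312 (1.88) and Anpep (1.81), and more negative for Nr4a2 (-2.85), Lif (-2.74), Egr3 (-2.64), Ccr2 (-2.56), Prss34 (-2.47), Sirpb1a (-2.38), Mpo (-2.36) and Elane (-2.30). The azurophil granule genes Mpo and Elane and the monocyte receptor Ccr2 stand on the negative side. For high minus middle it was more positive for Cilp2 (2.28), Cd5l (2.12), C1qa (1.39), Cdkn1c (1.23), Apoe (1.22), C1qb (1.22), Ngp (1.15) and C1qc (1.09), and more negative for Lars2 (-2.21), LOC118568312 (-2.09), Cass4 (-1.45), Bcl2a1a (-1.42), Il1r2 (-1.33), Cd80 (-1.25), Dusp16 (-1.25) and Bcl2a1b (-1.03). Lars2 and LOC118568312 stand out through the middle replicate 1 library.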

How the results depend on the processing

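The counts of genes set apart were 1982 higher and 2352 lower at a 1.5-fold minimum and 73 and 446 at 4-fold. Without a filter on low counts, 1556 genes had a differing high minus low effect, 724 a differing middle minus low effect and 314 a differing high minus middle effect; DESeq2 gave 60 for the last. With the replicate number as a block the count for high minus middle was also 60, and that for high minus low was 1023 and for middle minus low 364. Leaving out 1 library at a time, the counts ranged from 514 to 1603 (high minus low), from 115 to 593 (middle minus low) and from 6 to 289 (high minus middle). A contrast cannot be estimated without either of its own replicate 1 libraries, so those were never left out for it. The cause of these shifts in the counts was not tested. The median of the N1 markers became -0.06 when centred on length. Leaving out 1 library at a time, it ran from -0.01 (without low replicate 1) to 0.40, that of NF-kB genes from -0.08 (without low replicate 1) to 0.37, that of basophil and mast cell markers from -1.18 to 0.14 (without middle replicate 1), and that of fatty acid oxidation genes from -0.02 (without high replicate 1) to 0.25. Replicate 1 has 1 library per gel, and its totals are the lowest, so low-count genes are the least certain. Of the named interactions, 11 of 16 for high minus middle, 2 of 16 for middle minus low (Elane and Mgst2, without middle replicate 2) and 1 of 18 for high minus low (Fam177a2) lost the call when 1 library was left out; upper quartile factors also lost Bcl2a1b and Cass4.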
